A study of Mus musculus with 28 samples.

Results

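The genes described here carry out or report the integrated stress response, together with the enzymes and transporters of serine, one-carbon and amino acid metabolism that this response controls. They were 34 genes taken by symbol from a written list, and all 34 were found among the 17342 genes of the deposited table. They comprised 6 transcription factors, 5 feedback and effector genes, 7 enzymes of serine, glycine and mitochondrial one-carbon metabolism, 6 enzymes of asparagine, proline, alanine and cysteine metabolism, 8 amino acid transporters, and the pair Stc2 and Vldlr.

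RNA was measured in V6.5 cells, a male mouse embryonic stem cell (ESC) line of mixed 129/C57BL/6 strain, grown in serum with LIF, a cytokine that keeps ESCs undifferentiated. The study asked which functions of Tet2, an enzyme that oxidizes 5-methylcytosine in DNA, do not need its catalytic activity. The groups were Tet2-WT (wildtype, n = 3 independent ESC cultures), Tet2-Mut (mutant, n = 2 clones) and Tet2-KO (knockout, n = 2 clones). The labels do not describe the mutation of Tet2-Mut or the deleted stretch of Tet2-KO. All groups were kept on feeder cells, separated from them by pre-plating, and left on gelatin overnight before RNA was extracted. Replicate numbers only name cultures and clones, so replicate 1 of one genotype is not related to replicate 1 of another.

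In the integrated stress response, kinases that sense amino acid shortage, unfolded protein, viral RNA or heme loss phosphorylate the initiation factor eIF2. General translation then falls, while translation of the transcription factor ATF4 increases, and ATF4 turns on genes that import and make amino acids, charge tRNAs and restore translation. Serine is made from a glycolytic intermediate by PHGDH, PSAT1 and PSPH, and the SHMT and MTHFD enzymes pass its carbon on to folate for nucleotide synthesis and for methyl groups, on which rapidly dividing ESCs draw. Because ATF4 is controlled mainly at translation, mRNA levels do not report its protein.

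The 7 libraries held 41.9 M to 58.5 M reads assigned to genes, recovered from the deposited normalized counts (counts divided by the library's DESeq2 size factor). All levels below are normalized counts, which are comparable between libraries but not between genes, since they are not divided by gene length. Tet2 itself had 10343, 10245 and 12074 normalized counts in Tet2-WT replicates 1, 2 and 3, 9992 and 13181 in the Tet2-Mut clones, and 4624 and 5206 in the Tet2-KO clones, so both Tet2-KO libraries were below all others, and the level does not check the mutant label. All 10 ESC markers, among them Pou5f1, Nanog and Sox2, were well detected in every library. Of the feeder fibroblast markers, 13 of 15 were in the table, and their summed level was 47040 to 52240 in Tet2-WT, 42120 to 57760 in Tet2-Mut and 57560 to 71730 in Tet2-KO. In bulk RNA, a change in the share of a cell type and a change in RNA per cell cannot be told apart. Among genes with a mean level above 500 normalized counts (the mean taken on the log2 scale over the 7 libraries), those of chromosome 8 stood apart as a block, with a median log2 difference from the Tet2-WT mean of 0.30 in each Tet2-Mut clone and of -0.27 and -0.23 in the Tet2-KO clones. Chromosome 14 stood at 0.53 in Tet2-Mut replicate 2 alone. The medians of the other chromosomes lay between -0.03 and 0.07 in every library. Eif4ebp1, Gpt2 and Slc7a5 are on chromosome 8, and none of the 34 genes is on chromosome 14.

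Promoter sequences were read from RefSeq (GRCm38.p6, the mm10 build) in windows from 250 bases before to 50 bases after annotated transcription starts. Windows were present for 30 of the 34 genes (not for Eif4ebp1, Cth, Slc7a3 and Slc7a5). Not every start had a window: for Mthfd2, Slc7a11 and Slc3a2 the only window lay inside the annotated span of the gene. The composite site of C/EBP and ATF family factors, in letters TGATGNAA on either strand, was found in windows of 8 of these 30 genes, or 26.7%, against 4.51% of 27025 genes with a window and 3.97% of 32851 windows. The 8 genes were Nupr1, Trib3, Chac1, Asns, Pycr1, Slc7a11, Slc1a4 and Vldlr, the last only at its second start. A match is a description of the letters and not a bound site, and genes of this kind were listed in part because ATF4 is known to act on them. The following stretches are shown because they carry the match in a stress gene of each kind (a transcription factor, an effector, 2 enzymes and a transporter). They run 5′ to 3′ on the strand of the gene and end before the start site, and capitals mark the match.
Nupr1, chr7:126625537-126625616, minus strand: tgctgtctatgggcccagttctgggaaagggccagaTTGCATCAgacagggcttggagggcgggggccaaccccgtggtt
Chac1, chr2:119351013-119351092, plus strand: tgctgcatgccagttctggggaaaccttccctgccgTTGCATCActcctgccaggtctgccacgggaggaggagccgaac
Asns, chr6:7693210-7693268, minus strand: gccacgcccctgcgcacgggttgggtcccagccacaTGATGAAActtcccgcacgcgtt
Pycr1, chr11:120643808-120643887, minus strand: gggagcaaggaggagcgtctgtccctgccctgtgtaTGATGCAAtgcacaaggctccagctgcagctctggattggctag
Slc7a11, chr3:50443617-50443715, minus strand: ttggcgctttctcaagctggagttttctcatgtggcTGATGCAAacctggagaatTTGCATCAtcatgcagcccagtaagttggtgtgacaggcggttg

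Slc7a11 carried the match on both strands within one stretch. Of the genes that passed a test in any comparison and had a window (Cebpb, Nupr1, Sesn2, Phgdh, Mthfd2 and Slc3a2), Nupr1 alone held a match. The 150 bases before the start of Sesn2, Phgdh and Mthfd2 (for Mthfd2 a start inside the gene's span) are shown for comparison. These genes were higher in Tet2-Mut than in Tet2-WT, and none of the stretches holds the letters.
Sesn2, chr4:132510457-132510606, minus strand: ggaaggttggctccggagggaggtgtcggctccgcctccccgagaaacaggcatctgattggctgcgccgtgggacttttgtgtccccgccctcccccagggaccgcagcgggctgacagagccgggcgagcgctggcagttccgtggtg
Phgdh, chr3:98339970-98340119, minus strand: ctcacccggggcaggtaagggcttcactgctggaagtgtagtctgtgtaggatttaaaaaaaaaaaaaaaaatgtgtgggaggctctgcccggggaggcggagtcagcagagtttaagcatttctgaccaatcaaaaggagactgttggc
Mthfd2, chr6:83317605-83317754, minus strand: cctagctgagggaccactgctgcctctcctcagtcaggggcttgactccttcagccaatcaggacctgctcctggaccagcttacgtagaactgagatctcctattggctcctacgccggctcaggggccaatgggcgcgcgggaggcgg

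All 34 genes passed the filter of at least 10 normalized counts in at least 2 libraries, and 33 of them had at least 100 in every library. The exception was Slc7a11, whose smallest library held 38 reads. Relative to the Tet2-WT mean, the median log2 level of the 34 genes was 0.18 and 0.39 in Tet2-Mut replicates 1 and 2 and 0.25 and 0.09 in Tet2-KO replicates 1 and 2. The Tet2-WT cultures themselves stood at -0.08, 0.02 and 0.07, with 8, 22 and 27 of the 34 genes above their mean in replicates 1, 2 and 3, and these libraries held 58.5 M, 51.7 M and 41.9 M reads. The part of depth in that order was not tested. The plot of all 34 genes by library shows that 28 lay to the right of the Tet2-WT mean in each Tet2-Mut clone and in the first Tet2-KO clone, against 22 in the second.

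**Figure D1:**
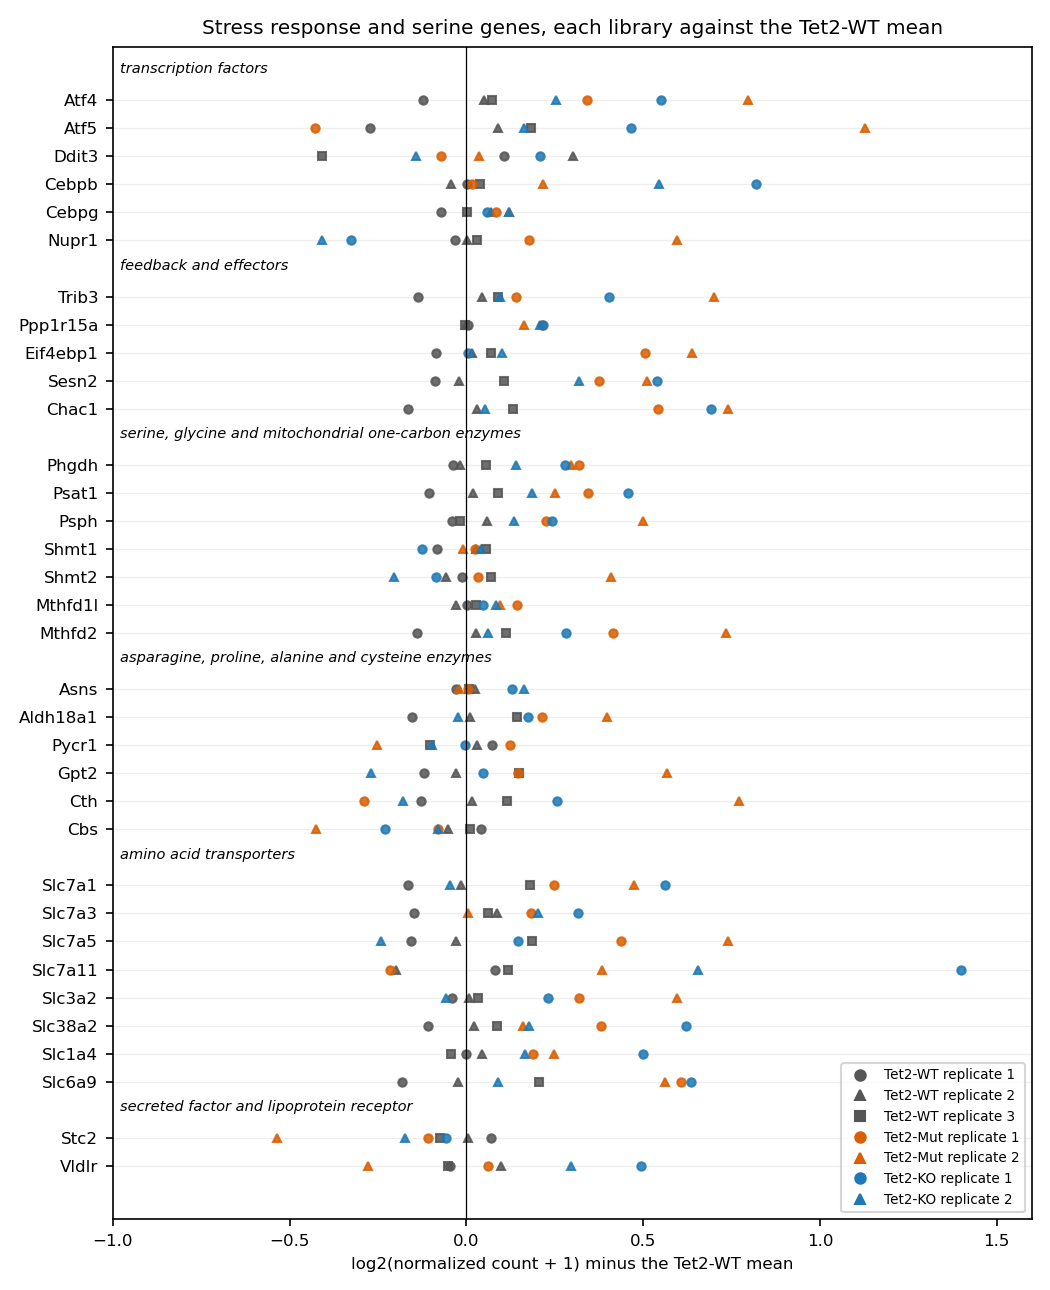
Each row is 1 of the 34 genes, ordered by role, and each point is 1 library, placed by its log2(normalized count + 1) minus the Tet2-WT mean (horizontal axis, log2 units). Circles, triangles and squares are replicates 1, 2 and 3, with grey for Tet2-WT, orange for Tet2-Mut and blue for Tet2-KO. Both Tet2-Mut clones lie above all Tet2-WT libraries in 20 genes and both Tet2-KO clones in 15.

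Against Tet2-WT, the Tet2-Mut clones had higher levels of the translation repressor gene Eif4ebp1, the growth brake Sesn2, the serine enzyme Phgdh, the mitochondrial folate enzyme Mthfd2 and the transporter subunit Slc3a2. These 5 of 34 passed the test (limma, adjusted p under 0.05 over all 17338 genes tested) as higher and 0 as lower, where 1.44% of all genes passed as higher and 1.98% as lower. The median log2 fold change of the 34 genes was 0.28, with 28 positive, against 0.01 over all genes tested. At an unadjusted limma p under 0.05 there were 17 of the 34, and 3651 of all 17338 genes. Both clones were above all 3 Tet2-WT libraries for 20 of the 34 genes (20.9% of all genes) and below them for 2, Cbs and Stc2 (19.8% of all genes). All 5 feedback and effector genes were among the 20, with 5 of 7 serine and one-carbon enzymes, 6 of 8 transporters, 3 of 6 transcription factors and 1 of 6 of the other enzymes. The calls rested on few libraries: without Tet2-WT replicate 1 or 2, 0 of 34 passed limma (12 and 14 at an unadjusted p under 0.05). Without Tet2-WT replicate 3 only Eif4ebp1 did. These 3 fits called 7, 6 and 123 genes in all, against 594 with all libraries. With 1 Tet2-Mut clone left, the median log2 fold change of the 34 genes was 0.39 without replicate 1 and 0.18 without replicate 2. With each gene centred on the median of its chromosome, an alternative chosen after seeing the data, Phgdh and Sesn2 passed.

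Against Tet2-WT, the Tet2-KO clones had higher levels of Cebpb, a transcription factor that pairs with ATF4, and of Sesn2. These 2 of 34 passed as higher and 0 as lower, where 3.0% of all genes passed as higher and 2.91% as lower. The median log2 fold change was 0.18, with 26 of 34 positive, against -0.002 over all genes tested. At an unadjusted limma p under 0.05 there were 13 of the 34, and 4019 of all 17338 genes. Both clones were above all Tet2-WT libraries for 15 of the 34 genes (21.9% of all genes) and below them for 3, Nupr1, Shmt2 and Cbs (22.8% of all genes). Both Tet2-KO and Tet2-Mut were set against the same 3 Tet2-WT libraries, so these counts are not independent of those above. Without Tet2-WT replicate 1, 2 or 3, 0 of 34 passed limma (9, 9 and 12 at an unadjusted p under 0.05). These fits called 94, 98 and 85 genes in all, against 1025 with all libraries. With 1 Tet2-KO clone left, the median log2 fold change of the 34 genes was 0.09 without replicate 1 and 0.25 without replicate 2. DESeq2 on the recovered reads of all libraries called 6 of the 34 and 1992 of all genes.

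Between the mutants, Cebpb was higher in Tet2-KO than in Tet2-Mut, and Nupr1, Eif4ebp1 and the leucine transporter gene Slc7a5 were lower. This gave 1 higher (2.64% of all genes) and 3 lower (3.55% of all genes) of 34. The median log2 fold change was -0.05, against 0.005 over all genes, with 13 of 34 positive. At an unadjusted limma p under 0.05 there were 11 of the 34, and 3499 of all 17338 genes. Of the 4 genes, Eif4ebp1 and Slc7a5 lie on chromosome 8, whose genes were lower as a block in Tet2-KO (of the 532 with a mean level above 500, 365 passed as lower and 2 as higher). With 1 Tet2-Mut clone left, the median log2 fold change of the 34 genes was -0.08 without replicate 1 and -0.01 without replicate 2. Without Tet2-WT replicate 2, which enters only the estimate of the spread, Eif4ebp1 alone of the 34 passed. That fit called 530 genes in all, against 1074 with all libraries.

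Among the transcription factors, Atf4 (chr15:80255184-80257545), the master regulator of the response, had 12193, 13725 and 13948 normalized counts in the Tet2-WT cultures, 16793 and 23061 in the Tet2-Mut clones, and 19416 and 15829 in the Tet2-KO clones. All 4 clones were above all 3 Tet2-WT libraries, and the clones of each genotype differed by more than the Tet2-WT cultures did. The difference from Tet2-WT was a log2 fold change of 0.57 in Tet2-Mut (SE 0.14, limma adjusted p = 0.0582) and 0.40 in Tet2-KO (SE 0.14, adjusted p = 0.119), neither past the threshold. On the recovered reads, edgeR and DESeq2 called Atf4 higher in Tet2-Mut, and DESeq2 called it in Tet2-KO as well. Cebpb (chr2:167688915-167690432) had 575, 557 and 590 in Tet2-WT, 581 and 668 in Tet2-Mut, and 1014 and 838 in Tet2-KO. Both Tet2-KO clones were above the 5 other libraries, while Tet2-Mut replicate 1 lay within the Tet2-WT range. The mean of Cebpb rose from 574 ± 16.4 (SD, n = 3 Tet2-WT) to 926 ± 124 (n = 2 Tet2-KO), which is 0.68 on the log2 scale (SE 0.13, limma adjusted p = 0.0207), and it was higher than in Tet2-Mut by 0.57 (SE 0.14, adjusted p = 0.0468).

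Nupr1 (chr7:126623246-126625470), a small stress-induced chromatin protein, had its lowest levels in Tet2-KO. It had 885, 907 and 924 normalized counts in Tet2-WT, 1024 and 1367 in Tet2-Mut, and 721 and 681 in Tet2-KO. The 3 groups did not overlap, with Tet2-KO lowest and Tet2-Mut highest. Tet2-KO was lower than Tet2-Mut by a log2 fold change of -0.75 (SE 0.14, limma adjusted p = 0.0175), whereas neither differed from Tet2-WT past the threshold (-0.37, adjusted p = 0.133, and 0.39, adjusted p = 0.14).

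Atf5, an ATF4 relative that acts in the mitochondrial stress response, split the Tet2-Mut clones. Its normalized counts were 1768, 2271 and 2424 in Tet2-WT, 1588 and 4670 in Tet2-Mut, and 2948 and 2390 in Tet2-KO. Tet2-Mut replicate 1 was the lowest and replicate 2 the highest of the 7 libraries, a log2 difference of 1.56 that was the largest between clones of one genotype among the 34 genes. The log2 fold change of Tet2-Mut against Tet2-WT was 0.35 with an SE of 0.36 (limma adjusted p = 0.631). Ddit3, which encodes the pro-death factor CHOP, had 459, 525 and 321 in Tet2-WT, 406 and 437 in Tet2-Mut, and 492 and 386 in Tet2-KO. All clones lay inside the Tet2-WT range, with log2 fold changes of -0.02 and 0.03 (SE 0.21 each, limma adjusted p = 0.977 and 0.952). Cebpg, the partner of ATF4 on composite sites, had 1932 ± 94.3 (SD, n = 3), 2072 ± 38.3 and 2056 ± 63.1 (n = 2 each) in Tet2-WT, Tet2-Mut and Tet2-KO, and no comparison passed.

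Among the feedback and effector genes, Eif4ebp1 (chr8:27260327-27275656) encodes 4E-BP1, which binds the cap-binding factor eIF4E and holds back translation. It had 15104, 16225 and 16836 normalized counts in Tet2-WT, 22763 and 24940 in Tet2-Mut, and 16103 and 17198 in Tet2-KO. Both Tet2-Mut clones were above the other 5 libraries, which formed one range. The log2 fold change was 0.57 in Tet2-Mut against Tet2-WT (SE 0.07, limma adjusted p = 0.0131), 0.05 in Tet2-KO against Tet2-WT (adjusted p = 0.72) and -0.52 in Tet2-KO against Tet2-Mut (SE 0.08, adjusted p = 0.00727). Centred on the chromosome 8 median, the same contrasts were 0.28 (adjusted p = 0.0508), 0.30 (adjusted p = 0.0276) and 0.02 (adjusted p = 0.913). The level of Eif4ebp1 and the shift of its chromosome cannot be told apart by genotype, since both clones of each genotype carry the shift.

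Sesn2 (chr4:132492804-132510456), a leucine sensor that restrains the growth kinase complex mTORC1, passed in both genotypes. It had 7283, 7633 and 8341 normalized counts in Tet2-WT, 10034 and 11029 in Tet2-Mut, and 11255 and 9657 in Tet2-KO. All 4 clones were above the highest Tet2-WT library. The log2 fold change was 0.44 in Tet2-Mut (SE 0.09, limma adjusted p = 0.036) and 0.43 in Tet2-KO (SE 0.09, adjusted p = 0.0285), and the groups of clones differed by -0.01 (SE 0.10, adjusted p = 0.961). Chromosome centring left 0.43 and 0.40, both past the threshold.

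Chac1, an enzyme that degrades glutathione and a sensitive marker of ATF4 activity, had 1085, 1243 and 1334 normalized counts in Tet2-WT, 1770 and 2031 in Tet2-Mut, and 1965 and 1262 in Tet2-KO. Both Tet2-Mut clones and Tet2-KO replicate 1 were above Tet2-WT, while Tet2-KO replicate 2 lay within its range. For Chac1 the log2 fold change was 0.64 in Tet2-Mut (SE 0.18, limma adjusted p = 0.0842), the highest of the 34 genes in that comparison but not past the threshold. Trib3, a pseudokinase that feeds back on ATF4, had 2393, 2714 and 2799 in Tet2-WT, 2898 and 4277 in Tet2-Mut, and 3480 and 2810 in Tet2-KO. All 4 clones exceeded Tet2-WT, the lowest of them with 2810 against 2799, and no comparison passed (log2 fold changes 0.42 and 0.25, limma adjusted p = 0.184 and 0.399). Ppp1r15a, which encodes GADD34 and directs the phosphatase that reverses eIF2 phosphorylation, was tightly grouped, with 1671 ± 6.22 in Tet2-WT (SD, n = 3), 1905 ± 46.3 in Tet2-Mut and 1936 ± 9.4 in Tet2-KO (n = 2 each). The groups of clones lay above Tet2-WT without overlap, and the log2 fold changes of 0.19 and 0.21 did not pass (limma adjusted p = 0.2 and 0.134).

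**Figure D2:**
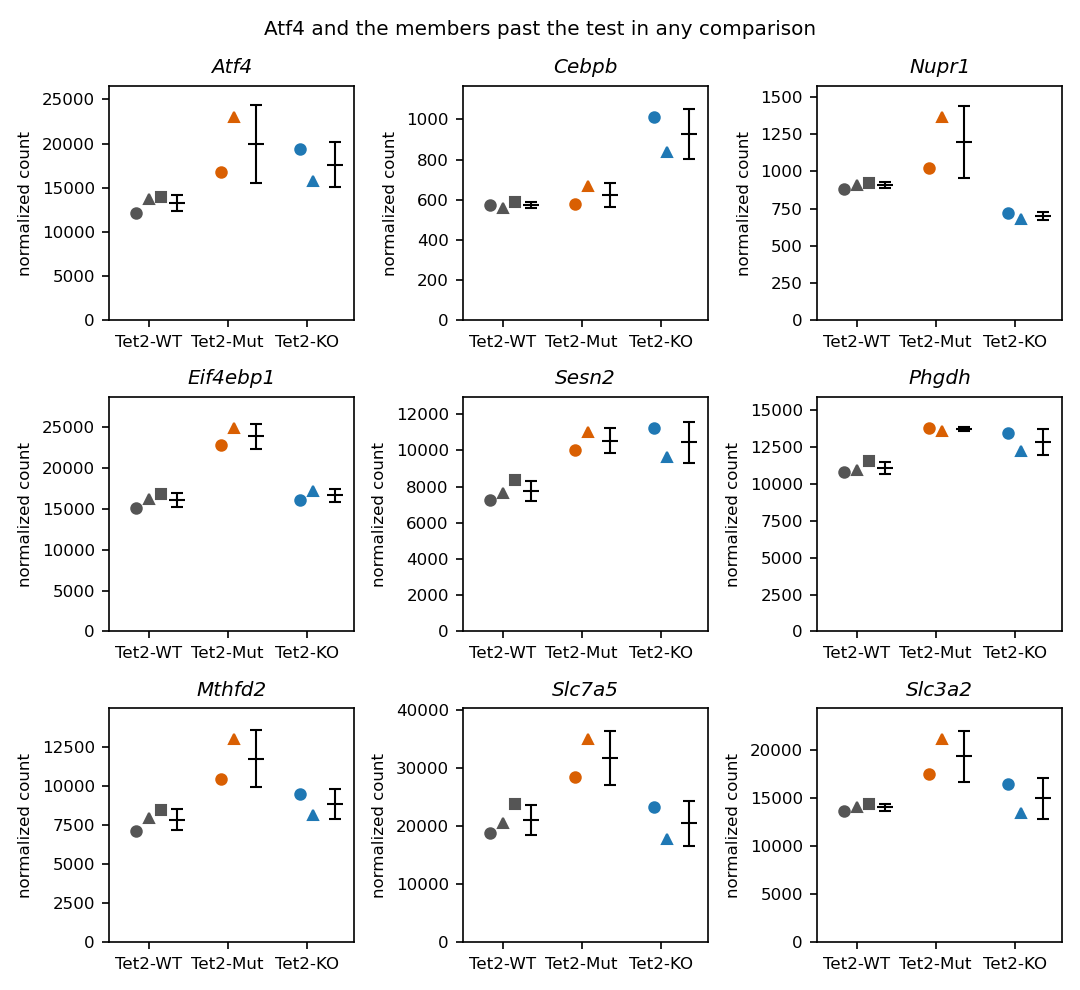
Normalized counts (vertical axes, each from 0) of Atf4 and of the 8 genes that passed limma in any comparison, by genotype. Points are libraries, with circle, triangle and square for replicates 1, 2 and 3, and the black bars beside them give the mean and SD (n = 3 for Tet2-WT, n = 2 for the others). Sesn2 is above the Tet2-WT range in all 4 clones, the Tet2-KO clones are the highest libraries for Cebpb, and the Tet2-Mut clones are the highest for Eif4ebp1.

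In the serine pathway, Phgdh (chr3:98313171-98339969), whose product commits the glycolytic intermediate to serine, had 10804, 10969 and 11541 normalized counts in Tet2-WT, 13837 and 13627 in Tet2-Mut, and 13475 and 12233 in Tet2-KO. All 4 clones were above Tet2-WT, and the Tet2-Mut clones were nearly equal. In log2 terms Phgdh was higher by 0.31 in Tet2-Mut (SE 0.07, limma adjusted p = 0.0411) and 0.21 in Tet2-KO (SE 0.07, adjusted p = 0.0952). The next enzymes of the pathway were higher in both genotypes without passing. Psat1 had 27022 ± 1825 in Tet2-WT (SD, n = 3), 33177 ± 1477 in Tet2-Mut and 33865 ± 4454 in Tet2-KO (n = 2 each), with log2 fold changes of 0.30 and 0.32 (limma adjusted p = 0.107 and 0.0704). Psph had 2416 ± 88.7, 3118 ± 418 and 2753 ± 145, with log2 fold changes of 0.36 and 0.19 (adjusted p = 0.0737 and 0.278). For both genes all 4 clones were above all Tet2-WT libraries.

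The mitochondrial arm of one-carbon metabolism was not uniform. Mthfd2 (chr6:83305704-83326011), the mitochondrial methylene-folate dehydrogenase of proliferating cells, had 7100, 7977 and 8446 normalized counts in Tet2-WT, 10433 and 13019 in Tet2-Mut, and 9502 and 8156 in Tet2-KO. Both Tet2-Mut clones were above all other libraries, and Tet2-KO replicate 2 lay within the Tet2-WT range. Tet2-Mut exceeded Tet2-WT by a log2 fold change of 0.58 (SE 0.11, limma adjusted p = 0.0352), Tet2-KO by 0.17 (adjusted p = 0.417), and Tet2-KO differed from Tet2-Mut by -0.40 (SE 0.12, adjusted p = 0.102). Shmt2, the mitochondrial enzyme that splits serine to glycine, had 16677 ± 750 in Tet2-WT (SD, n = 3), 19598 ± 3592 in Tet2-Mut and 15087 ± 873 in Tet2-KO (n = 2 each). Its Tet2-KO clones were below all Tet2-WT libraries and its Tet2-Mut clones overlapped them, and no comparison passed. Mthfd1l, which releases formate, had 9770 ± 190, 10610 ± 239 and 10229 ± 184, and the cytosolic Shmt1 had 8017 ± 398, 8052 ± 137 and 7791 ± 638, neither past the threshold in any comparison.

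Of the 6 remaining enzymes, 0 passed limma in Tet2-KO against Tet2-WT, Tet2-Mut against Tet2-WT or Tet2-KO against Tet2-Mut, with 1, 2 and 2 at an unadjusted p under 0.05. On the recovered reads edgeR called 0 in each and DESeq2 0, 0 and 1. Asns (asparagine synthetase), a standard readout of amino acid shortage, had 21420, 22236 and 21992 normalized counts in Tet2-WT, 21951 and 21573 in Tet2-Mut, and 23914 and 24518 in Tet2-KO. The Tet2-Mut clones lay within the Tet2-WT range and the Tet2-KO clones above it. The log2 fold changes were -0.01 (SE 0.05, limma adjusted p = 0.955) and 0.15 (SE 0.05, adjusted p = 0.148).

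Cth, the enzyme that releases cysteine from cystathionine, split the Tet2-Mut clones as Atf5 did. It had 4074, 4499 and 4818 normalized counts in Tet2-WT, 3640 and 7600 in Tet2-Mut, and 5318 and 3932 in Tet2-KO. One clone of each genotype was below and the other above the Tet2-WT range, and the log2 fold changes were 0.24 and 0.04 with an SE of 0.26 each. Cbs, which makes cystathionine, was lower than Tet2-WT in all 4 clones, with 1992 ± 65.5 in Tet2-WT (SD, n = 3), 1684 ± 285 in Tet2-Mut and 1791 ± 132 in Tet2-KO (n = 2 each), and did not pass (log2 fold changes -0.25 and -0.15, limma adjusted p = 0.238 and 0.455). The proline enzymes Aldh18a1 (log2 fold changes 0.31 in Tet2-Mut and 0.08 in Tet2-KO) and Pycr1 (-0.06 and -0.05) and the alanine transaminase Gpt2 (0.36 and -0.11) did not pass either. For Gpt2, which is on chromosome 8, these became 0.07 and 0.14 after chromosome centring.

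Among the transporters, Slc3a2 and Slc7a5 encode the heavy and light chains of the LAT1 exchanger, which brings in leucine and other large neutral amino acids. Slc3a2 (chr19:8706882-8723369) had 13642, 14098 and 14338 normalized counts in Tet2-WT, 17480 and 21191 in Tet2-Mut, and 16469 and 13468 in Tet2-KO. Both Tet2-Mut clones were above all the other libraries, and the Tet2-KO clones lay on either side of the Tet2-WT range. Against Tet2-WT, the log2 fold change was 0.46 in Tet2-Mut (SE 0.10, limma adjusted p = 0.049), 0.09 in Tet2-KO (adjusted p = 0.672), and Tet2-KO differed from Tet2-Mut by -0.37 (adjusted p = 0.0962). Slc7a5 (chr8:121881146-121907686) had 18808, 20571 and 23854 in Tet2-WT, 28404 and 35022 in Tet2-Mut, and 23220 and 17748 in Tet2-KO. Again the Tet2-Mut clones were above all others and Tet2-KO replicate 2 was the lowest library. Tet2-KO was lower than Tet2-Mut by a log2 fold change of -0.64 (SE 0.15, limma adjusted p = 0.0431), and Tet2-Mut against Tet2-WT was 0.59 (SE 0.14, adjusted p = 0.0556). After centring on chromosome 8 these values were -0.10 (adjusted p = 0.771) and 0.30 (adjusted p = 0.246), so for Slc7a5 too the genotype and the chromosome shift cannot be told apart.

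Slc7a11, the cystine-glutamate exchanger subunit that supplies cysteine for glutathione, had the fewest reads of the 34 genes. Its normalized counts were 48.3, 39.5 and 49.6 in Tet2-WT, 39.1 and 59.8 in Tet2-Mut, and 121.8 and 72.4 in Tet2-KO. Both Tet2-KO clones were above all other libraries, yet they differed from each other by 0.74 on the log2 scale. The log2 fold change was 1.03 in Tet2-KO against Tet2-WT, the highest of the 34 genes in that comparison, with an SE of 0.35 (limma adjusted p = 0.119). The Tet2-KO clones also had the highest fibroblast markers, as given below, and the part of these in Slc7a11 and Cebpb was not tested.

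Slc7a1, a cationic amino acid transporter, had 4594, 5095 and 5837 normalized counts in Tet2-WT, 6111 and 7160 in Tet2-Mut, and 7597 and 4986 in Tet2-KO. Slc6a9, the glycine transporter GLYT1, had 401, 447 and 525 in Tet2-WT, 694 and 672 in Tet2-Mut, and 708 and 484 in Tet2-KO. In both genes the Tet2-Mut clones and Tet2-KO replicate 1 were above Tet2-WT and Tet2-KO replicate 2 lay within its range, and no comparison passed (limma adjusted p of 0.114 or more). Slc38a2, the neutral amino acid transporter SNAT2, had 16858, 18434 and 19266 in Tet2-WT, 23634 and 20290 in Tet2-Mut, and 27936 and 20512 in Tet2-KO. All 4 clones were above Tet2-WT, with log2 fold changes of 0.27 and 0.40 (SE 0.13 each, limma adjusted p = 0.26 and 0.0988). The serine and alanine transporter gene Slc1a4 was also higher in all 4 clones, with 2470 ± 75.9 (SD, n = 3), 2873 ± 82.3 and 3130 ± 511 (n = 2 each) in Tet2-WT, Tet2-Mut and Tet2-KO (adjusted p = 0.257 and 0.0882 against Tet2-WT). Slc7a3, a cationic amino acid transporter, had 9128 ± 794, 9736 ± 851 and 10904 ± 618 and did not pass.

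In the last pair, 0 of 2 passed limma in any comparison (1 at an unadjusted p under 0.05 in each, 0 by edgeR and DESeq2). Stc2, a secreted glycoprotein induced by ATF4, had 2320, 2220 and 2098 normalized counts in Tet2-WT, 2051 and 1524 in Tet2-Mut, and 2125 and 1959 in Tet2-KO. Both Tet2-Mut clones were below Tet2-WT, the second far more than the first, and the log2 fold change was -0.32 (SE 0.12, limma adjusted p = 0.185), the lowest of the 34 genes in that comparison. Vldlr, the very low density lipoprotein receptor, had 446 ± 26.6 in Tet2-WT (SD, n = 3), 416 ± 69.2 in Tet2-Mut and 587 ± 57 in Tet2-KO (n = 2 each). Its Tet2-KO clones were above all other libraries, and the log2 fold changes of 0.40 against Tet2-WT and 0.50 against Tet2-Mut did not pass (adjusted p = 0.152 and 0.115).

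The clones of one genotype were not interchangeable for these genes. In Tet2-Mut, replicate 2 exceeded replicate 1 in 21 of 34 genes, where 49.17% of all genes did so, with a median log2 difference of 0.13. The 6 largest differences were Atf5 (1.56), Cth (1.06), Slc7a11 (0.60), Trib3 (0.56), Atf4 (0.46) and, in the opposite direction, Stc2 (-0.43). In Tet2-KO, replicate 1 exceeded replicate 2 in 28 of 34 genes, where 51.49% of all genes did so, with a median difference of 0.22. The 6 exceptions were Cebpg, Eif4ebp1, Shmt1, Mthfd1l, Asns and Cbs, and the 6 largest differences were Slc7a11 (0.74), Chac1 (0.64), Slc7a1 (0.61), Slc6a9 (0.55), Slc38a2 (0.45) and Cth (0.44). Counted against the highest Tet2-WT library, 22 of the 34 genes were above it in Tet2-Mut replicate 1 (34.3% of all genes), 26 in Tet2-Mut replicate 2 (37.4%), 23 in the first Tet2-KO clone (36.5%) and 17 in the second (33.0%). Transporters showed the split in Tet2-KO most plainly, with a median log2 difference from the Tet2-WT mean of 0.53 in replicate 1 and 0.13 in replicate 2.

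**Figure D3:**
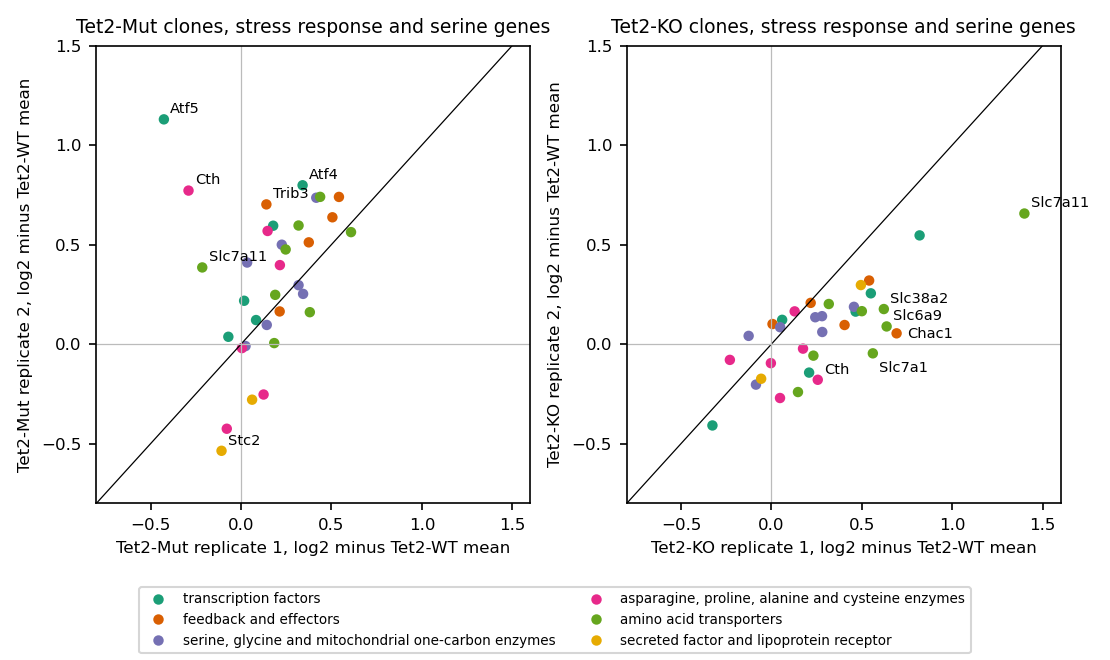
Each point is 1 of the 34 genes, placed by its log2 difference from the Tet2-WT mean in replicate 1 (horizontal axis) and replicate 2 (vertical axis) of Tet2-Mut (left) and Tet2-KO (right), coloured by role, with the line of equal values drawn. The 6 genes with the largest difference between clones are named, and in Tet2-KO 28 of 34 points lie below the line.

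Markers of other cells moved with the clones too. For the 13 fibroblast markers, the median log2 difference from the Tet2-WT mean was 0.63 and -0.05 in Tet2-Mut replicates 1 and 2. It was 1.63 and 0.95 in the Tet2-KO clones. In Tet2-KO against Tet2-WT, 5 of the 13 (Col1a1, Col1a2, Col5a1, Lox and Tagln) were higher (3.0% of all genes), 0 were lower and all 13 were positive. None of the 13 was at 0 in any library. The 10 ESC markers had a median of -0.29 in Tet2-KO replicate 1 and between -0.02 and 0.02 in the other 6 libraries. Of these 10, 1, Nanog, passed limma as lower in Tet2-Mut than in Tet2-WT (1.98% of all genes), and 0 passed in Tet2-KO against Tet2-WT. Both Tet2-Mut clones were below all Tet2-WT libraries in 3 (19.8% of all genes) and above in 1 (20.9%). Both Tet2-KO clones were below in 4 (22.8%) and above in 0 (21.9%). Of 7 primitive streak and mesoderm markers, 4 (T, Fgf8, Wnt3 and Evx1) were higher in Tet2-KO than in Tet2-WT, and 1, Eomes, was lower in Tet2-Mut (1.98% of all genes). Of 6 trophectoderm markers, Cdx2, Krt8 and Krt18 were higher in Tet2-KO than in Tet2-WT, Hand1 and Eomes were lower in Tet2-Mut, and 5 were higher in Tet2-KO than in Tet2-Mut (2.64% of all genes). Of 5 neural markers, Pax6 was higher in both genotypes (1.44% of all genes in Tet2-Mut) and Nes in Tet2-KO. In Tet2-KO against Tet2-WT 2 of the 5 were negative. Both Tet2-KO clones were below all Tet2-WT libraries for 1, Sox1 (22.8% of all genes). Against Tet2-Mut, Nes was higher and Sox1 lower in Tet2-KO (3.55% of all genes lower). Of 5 endoderm markers 0 passed limma in any comparison, with 0, 0 and 1 at an unadjusted p under 0.05, and edgeR and DESeq2 called 0. The first Tet2-KO clone had the higher fibroblast and streak markers of its pair as well as the higher level in 28 of the 34 genes. Tet2-Mut replicate 2, with the higher Atf4, had the lower fibroblast markers of its pair. The part of these cells in the differences of the 34 genes was not tested.

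Chromosome 8 bore on 3 of the 34 genes. Its 532 genes with a mean level above 500 normalized counts, of 861 tested, had a median log2 fold change of 0.30 in Tet2-Mut (135 higher, 2 lower) and of -0.25 in Tet2-KO against Tet2-WT (5 higher, 122 lower), and of -0.54 in Tet2-KO against Tet2-Mut. In the plot by chromosome, the 2 genes on chromosome 8 that passed a test, Eif4ebp1 and Slc7a5, stood above the chromosome's own median in Tet2-Mut. In Tet2-KO, where that median was -0.27 and -0.23, Eif4ebp1 stood at 0.01 and 0.10 and Slc7a5 at 0.15 and -0.24. Gpt2, the third gene, stood at 0.15 and 0.57 in Tet2-Mut and at 0.05 and -0.27 in Tet2-KO. Over all genes, centring on the chromosome median changed the split of calls from 250 higher and 344 lower to 91 and 325 in Tet2-Mut against Tet2-WT, and from 458 and 616 to 310 and 157 in Tet2-KO against Tet2-Mut.

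**Figure D4:**
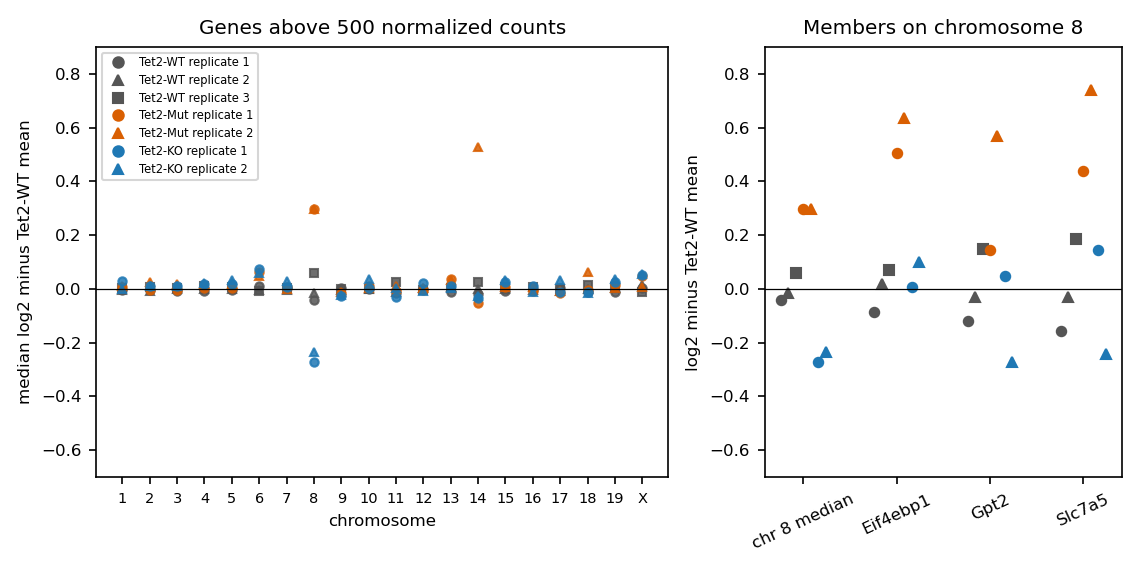
Left, the median over the genes of each chromosome with a mean level above 500 normalized counts of the log2 difference from the Tet2-WT mean (vertical axis), for each of 7 libraries. Right, the same median for chromosome 8, and the log2 differences of Eif4ebp1, Gpt2 and Slc7a5. Both Tet2-Mut clones stand at 0.30 for the chromosome, at higher values for Eif4ebp1 and Slc7a5, and on either side of 0.30 for Gpt2. In both Tet2-KO clones too, Eif4ebp1 stands above the chromosome's median.

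The rest of the pathway was followed in 8 lists of 84 genes in all, 10 of them on chromosome 8. Slc7a11 stands in the list of NRF2 targets too. Upstream of ATF4, 0 of 5 genes (the 4 eIF2 kinases and the phosphatase cofactor Ppp1r15b) and 0 of 8 eIF2 and eIF2B subunits passed limma in any comparison, and edgeR and DESeq2 called 0 as well. At an unadjusted p under 0.05 there were 0 of the 5 in each comparison, and 1, 2 and 0 of the 8 subunits in Tet2-KO against Tet2-WT, Tet2-Mut against Tet2-WT and Tet2-KO against Tet2-Mut. Over all 17338 genes tested there were 4019, 3651 and 3499 in the same order, which is the background for the unadjusted counts of every list.

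Of 12 aminoacyl-tRNA synthetases held to be ATF4 targets, all 12 were positive in Tet2-Mut against Tet2-WT, with a median log2 fold change of 0.20. Of these 12, 1, Aars, passed limma as higher (1.44% of all genes). Aars, which charges alanine tRNA, had 32295, 35136 and 40726 normalized counts in Tet2-WT, 50496 and 50576 in Tet2-Mut, and 34243 and 29881 in Tet2-KO. Both Tet2-Mut clones were the highest libraries for it, with a log2 fold change of 0.49 (limma adjusted p = 0.0357). Both Tet2-Mut clones were above all Tet2-WT libraries in 10 of the 12 (20.9% of all genes), and both Tet2-KO clones in 5 (21.9% of all genes). In Tet2-KO against Tet2-WT 0 of the 12 passed limma (3 at an unadjusted p under 0.05, 0 by edgeR and 1 by DESeq2), and against Tet2-Mut Aars was lower (-0.66, limma adjusted p = 0.00948). In Tet2-WT replicate 3 too, all 12 lay above the Tet2-WT mean. Of 8 other cytosolic synthetases, 7 were positive in Tet2-Mut against Tet2-WT with a median of 0.16, near that of the 12. In Tet2-KO against Tet2-WT 4 of the 8 were positive (median -0.09), and 11 of the 12 (median 0.11). Among the 8, Farsa and Kars were higher in Tet2-Mut than in Tet2-WT (log2 fold changes 0.43 and 0.33, with 1.44% of all genes called higher). They were lower in Tet2-KO than in Tet2-Mut (-0.60 and -0.54, with 3.55% of all genes called lower). Aars, Farsa and Kars are all on chromosome 8.

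Among 11 other ATF4 targets of stress and growth control, the secreted stress factor Gdf15 was the 1 that passed limma in Tet2-KO. Its level fell from 349 ± 2.78 (SD, n = 3 Tet2-WT) to 207 ± 17.3 (n = 2 Tet2-KO), which is -0.75 on the log2 scale (limma adjusted p = 0.0429), and it was also lower than in Tet2-Mut (-0.80, adjusted p = 0.0455). In Tet2-Mut the transporter gene Slc7a6 was higher (0.44, limma adjusted p = 0.0371) and the autophagy receptor gene Sqstm1 lower (-0.32, adjusted p = 0.0368). Gdf15 and Slc7a6 are on chromosome 8, Sqstm1 is not. Of the 11, 5 were positive and 6 negative in Tet2-KO against Tet2-WT (median log2 fold change -0.21). In Tet2-Mut against Tet2-WT 8 were positive and 3 negative (median 0.25). Both Tet2-KO clones were above all Tet2-WT libraries in 3 (21.9% of all genes) and below them in 4 (22.8%). For Tet2-Mut these counts were 6 (20.9%) and 3 (19.8%). Atf3, a stress-induced transcription factor of the same list, is named after its values were seen, and it is not typical of the list in Tet2-KO. It had 86.5, 115 and 113 normalized counts in Tet2-WT, 144 and 233 in Tet2-Mut, and 414 and 167 in Tet2-KO. All 4 clones were above Tet2-WT, and the Tet2-KO clones differed by 1.30 on the log2 scale. Its log2 fold changes were 1.33 in Tet2-KO (SE 0.38, limma adjusted p = 0.0716) and 0.81 in Tet2-Mut (SE 0.38, adjusted p = 0.258). These did not pass limma, while edgeR and DESeq2 on the recovered reads called Atf3 higher in Tet2-KO.

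Of 16 genes of the folate cycle, glycine cleavage and threonine catabolism, 1 passed in Tet2-Mut against Tet2-WT, Mat2a, which makes S-adenosylmethionine (0.39, limma adjusted p = 0.0493). In Tet2-KO against Tet2-WT and against Tet2-Mut 0 of these 16 passed limma (3 and 2 at an unadjusted p under 0.05, 1 and 0 by edgeR, 3 and 0 by DESeq2). Of 16 chaperones and other unfolded protein response genes, Herpud1, which acts in the removal of misfolded proteins, was higher (0.70) and the transcription factor gene Xbp1 lower (-0.47) in Tet2-Mut than in Tet2-WT, and 12 of the 16 were negative with a median of -0.08. In Tet2-KO against Tet2-WT 0 of these 16 passed limma (1 at an unadjusted p under 0.05, 0 by edgeR and 1 by DESeq2). Between the mutants Xbp1 was higher (0.44) and Herpud1 and the chaperone gene Calr lower (-0.71 and -0.47) in Tet2-KO.

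Of 8 NRF2 targets, which answer oxidative stress, the heme-degrading enzyme gene Hmox1 was higher in Tet2-Mut than in Tet2-WT (0.55, limma adjusted p = 0.0136). It was lower in Tet2-KO than in Tet2-WT (-0.36, adjusted p = 0.0247) and than in Tet2-Mut (-0.91, adjusted p = 0.00382). Hmox1, Herpud1 and Calr are on chromosome 8 and have the signs of its medians. Of the pathway genes outside the 34, 2 of 2 that passed in Tet2-KO against Tet2-WT were on chromosome 8. In Tet2-Mut against Tet2-WT 9 passed, 6 of them on chromosome 8, and in Tet2-KO against Tet2-Mut 8 passed, 7 of them there. Over all genes, calls as higher numbered 521, 250 and 458 in the same order. Of these, 5, 135 and 2 were chromosome 8 genes with a mean level above 500 normalized counts. Calls as lower numbered 504, 344 and 616, of which 122, 2 and 365 were such genes.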

How the data were processed

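RNA-seq was analysed in 7 libraries (Tet2-WT n = 3, Tet2-Mut n = 2, Tet2-KO n = 2). The table the authors deposited holds normalized counts, each a gene's reads over the DESeq2 size factor of its library, on a linear scale (unit signal). Per the submitters' processing notes, reads were trimmed with Trim Galore 0.6.5, aligned to mm10 with STAR 2.7.3a and counted with featureCounts. Annotation, strandedness and the handling of multiply mapped reads are not given in the sources used here, so levels of genes that overlap another gene or have a pseudogene (Atf5, Ddit3, Nupr1, Vldlr, Cebpg, Phgdh) may include its reads. Dividing by the smallest step of each library gave whole read counts from the deposited values for 100% of values within 0.01 reads, 41.9 M to 58.5 M per library. Of values from 1 to 20 reads, 72.1% to 75.2% were even, so mates may be counted separately. Every gene had at least 71 reads over the 7 libraries. All pairs of replicates differed beyond sampling noise (chi-square over its degrees of freedom 7.19 or more).

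The genotypes were compared by limma 3.58.1 (R 4.3.3) after log2(normalized count + 1), in 1 model of group means over all 7 libraries with a mean trend, two-sided, for 17338 genes with at least 10 in at least 2 libraries, with Benjamini-Hochberg adjustment at 0.05. Fold changes on this scale understate those of low genes. The p-values measure the spread between these cultures and clones, which were 34.15 (Tet2-KO) and 45.1 (Tet2-Mut) apart in chi-square per degree of freedom, against 7.19 to 13.4 for Tet2-WT, so a shared spread may understate that between clones. Alternatives were other pseudocounts, filters and scalings, a replicate block, other priors, edgeR 4.0.16 and DESeq2 1.42.0 on the recovered reads, each library left out and chromosome centring (added after seeing the data). The fit was run on simulated counts with known changes, whose spread beyond sampling noise was the same for every gene and library. Such counts cannot test the fit where the spread differs between groups. The members and lists were chosen with earlier results of these data known. Among the 34 genes, all library values were given for those past a test, Atf4, Ddit3, Asns and Phgdh. They were also given for the 6 with the largest difference between clones of each mutant genotype. From the other pathway lists, fold changes were given for at most 3 genes past the test per comparison, and for Atf3. Of these, Aars and Atf3 alone were given by library. The 3 bisulfite and 18 CUT&Tag samples were not analysed here.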

Additional observations from a re-analysis of the deposited data

Results flagged for a closer look

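The effects against Tet2-WT differed between the mutant genotypes, by limma's test of Tet2-KO against Tet2-Mut, in 4 of the 34 genes. Of these, 1 was higher in Tet2-KO (2.64% of all genes) and 3 were lower (3.55% of all genes). The log2 differences were 0.57 for Cebpb, -0.75 for Nupr1, -0.52 for Eif4ebp1 and -0.64 for Slc7a5. Eif4ebp1 and Slc7a5 are on chromosome 8, whose genes differed by a median of -0.54. Centred on the chromosome median, Nupr1 alone passed (-0.78, adjusted p = 0.0297). Without Tet2-Mut replicate 2, the clone whose chromosome 14 stood apart, the differences were 0.67, -0.55, -0.45 and -0.48, and that of Slc7a5 did not pass (adjusted p = 0.16).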

How the results depend on the processing

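Over 11 member results past the test and 20 alternatives each, 146 of 220 values stayed past the threshold in the same direction, 73 kept the direction without passing and 1 reversed: Eif4ebp1 in Tet2-KO against Tet2-Mut, a log2 fold change of 0.0188 after chromosome centring. Counts are given for Tet2-KO against Tet2-WT, Tet2-Mut against Tet2-WT and Tet2-KO against Tet2-Mut in turn, where the reported fit called 1025, 594 and 1074 genes and 2, 5 and 4 of the 34. Without a mean trend limma called 19, 0 and 10 genes and 0, 0 and 0 of the 34 (9, 13 and 9 at an unadjusted p under 0.05). With only the compared groups it called 2153, 901 and 0 genes and 5, 8 and 0 of the 34 (17, 20 and 9 unadjusted). DESeq2 called 1992, 1555 and 1808 genes and 6, 10 and 8 of the 34. Quantile normalization left 3 of the 34 in Tet2-Mut against Tet2-WT. Chromosome centring left 2 of the 34 there, and 467 genes and 1 of the 34 in Tet2-KO against Tet2-Mut. Leaving out 1 library gave 85 to 2158, 6 to 2198 and 530 to 2679 genes, and 0 to 6, 0 to 17 and 1 to 11 of the 34. Fits without a library also hold fewer libraries, and the cause of these changes was not tested.

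The replicate numbers name unrelated cultures and clones, and the deviations of same-numbered libraries correlated between -0.07 and 0.09, so the block is no pairing. With a replicate block limma called 15, 7 and 467 genes and 0, 0 and 1 of the 34 (9, 16 and 9 unadjusted), the last being Eif4ebp1. Slc7a11 had the fewest reads, 38 in its smallest library, and the part of depth in its spread was not tested. For all 34 genes, Slc7a11 among them, the number of clones, 2 per mutant genotype, limits the precision.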
